A study of Mus musculus with 20 samples.

Results

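Heparan sulfate is a sulfated sugar chain that is carried by proteins at the cell surface and in the matrix, where it holds growth factors, chemokines and enzymes. The 10 genes described here make and modify that chain. They are a subset of the 56239 genes counted in a time course of chromatin-associated RNA in B3 cells, and they were chosen by name as polymerases (Ext1, Ext2), N-deacetylase/N-sulfotransferases (Ndst1, Ndst2) and 2-O (Hs2st1), 6-O (Hs6st1) and 3-O sulfotransferases (Hs3st1, Hs3st2, Hs3st3a1, Hs3st3b1). The set was assembled when the falls of Hs3st2 and Hs3st3b1 in these same libraries were already known, so it was in part chosen on their measured change against 0 h. Those 2 genes are therefore described without a p-value. Counts over the 10 genes that include them are given beside the background, except for counts under alternative processing that have no such share here.

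B3 is a mouse pre-B cell line, originally derived from a lymphoma. All cells carried, by retroviral transduction, Ikaros (IKZF1) fused to ERt2, the ligand-binding part of an estrogen receptor that holds the fusion outside the nucleus until 4-hydroxytamoxifen (4-OHT) is added. The control group is the same transduced line with no treatment (0 h), and the other 9 groups received 500 nM 4-OHT for 30 min or for 1, 2, 6, 12, 15, 18, 21 or 24 h, each with 2 replicates and 20 libraries in all. No group of cells without the fusion, or with 4-OHT alone, was analysed here, so that nuclear IKZF1, the ligand and time in culture cannot be told apart. The fusion was expressed from a retroviral construct rather than from the Ikzf1 locus. RNA bound to chromatin is enriched for transcripts still being made, and intronic reads were counted, so a level below is a level of largely unspliced RNA over the gene body and not of mature mRNA or enzyme.

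Chain synthesis runs in a set order. EXT1 and EXT2 together polymerise alternating glucuronic acid and N-acetylglucosamine. NDST enzymes then replace acetyl groups with sulfate on nitrogen, which opens the chain to 2-O sulfation by HS2ST1 and 6-O sulfation by HS6ST enzymes. The 3-O sulfotransferases act last and rarely: HS3ST1 is best known for making the antithrombin-binding site of heparin, while HS3ST2, HS3ST3A1 and HS3ST3B1 make the other type of 3-O-sulfated site, known as an entry receptor for herpes simplex virus.

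The libraries held 33296158 to 46868954 counts with a median of 40943260, at which 3 counts are worth 0.0621 to 0.102 CPM (counts per 1000000, with library sizes scaled by TMM factors). Replicates of 12 h and 18 h stood apart from each other, with a chi-square per degree of freedom of 9.95 and 14.9 over their counts, against 4.78 at 21 h, 2.58 at 24 h and 1.26 to 1.77 at the other times. All counts of genes were therefore also made without the 12 h and 18 h libraries. Nothing in the labels says that replicates are separate cultures, so every p-value measures the spread between these libraries, which may be technical. For the untreated pair, which enters every comparison against 0 h, titles and count columns give replicates 1 and 2, but another label numbers them in a way that could mean 2 runs of 1 replicate. Their chi-square per degree of freedom was 1.46. Of the B-lineage markers reported, Ebf1, Pax5, Cd79a and Cd79b were present in all 20 libraries, while Rag1 and Rag2 had 0 counts in each. The pre-B receptor genes Igll1 and Vpreb1 were called down at 2 h. Of 11 markers of other cells, 6 never exceeded 3 counts in a library and Itgam was at 0 throughout. Their summed level of 124 to 435 CPM was almost entirely Pecam1 (123 to 434 CPM).

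After 4-OHT the RNA of 2 genes of the last step, Hs3st3b1 and Hs3st2, fell within the first hours and stayed low, that of Hs3st1 rose and came back, and the genes of the earlier steps moved by less than 2-fold against 0 h, although scaling by library totals took 4 of them past a 2-fold fall at 15 h or later. A gene was called where edgeR's quasi-likelihood test gave a Benjamini-Hochberg adjusted p below 0.01 over the 16601 genes tested and the fold change exceeded 2. Of the 10 genes, 9 had the 10 counts in 2 libraries needed to be tested, and Hs3st3a1 did not. Hs3st3b1 and Hs3st2 were the 2 genes called down at each of 1, 2, 6 and 24 h. Of all tested genes, 4.84% were called down at the first of these times, then 6.91%, 9.13% and 20.1%. Because these contrasts entered the choice of the set, nothing is read from those 2 calls. In the upward direction 0 of the 9 were called after 1 h (2.33% of all tested genes), although 5 were higher at an unadjusted p below 0.05. Hs3st1 was the 1 gene called up after 2 h (6.25% of all) and after 6 h (10.9%). After 24 h 0 were called up (20% of all) and 2 were higher at an unadjusted p below 0.05. DESeq2 called 0 up after 1 h and after 24 h as well. Hs3st2 and Hs3st3b1, chosen with their falls known, could hardly be called up. The upward counts out of 9 are therefore not read against the shares of all tested genes. Over the whole course 3 of the 9 changed, Hs3st1, Hs3st2 and Hs3st3b1, against 51.9% of all tested genes. Under library totals 7 of the 9 changed, Ext1, Ndst1, Hs2st1 and Hs6st1 being added, against 52.9%. Hs3st2 and Hs3st3b1, whose falls against 0 h were known at the choice, are in both counts. Neither count is therefore read against its share.

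Below the 2-fold limit most of the other genes still moved. At an adjusted p below 0.01 whatever the fold, 4 of the 9 were lower at 2 h (Hs3st2, Hs3st3b1, Ext1 and Ndst1; 23.8% of all tested genes) and 3 were higher (Hs3st1, Ext2 and Ndst2; 23.9%). At 24 h 6 were lower (Hs3st2, Hs3st3b1, Ext1, Hs2st1, Hs6st1 and Ndst1; 36.1%) and 2 were higher (Ext2 and Ndst2; 35.4%). Hs3st2 and Hs3st3b1 are among the lower genes through the choice of the set and could hardly be among the higher ones. These counts are therefore not read against the shares either. The count of 3 higher at 2 h became 0 without either 0 h library or without replicate 2 of 2 h, and 1 without replicate 1 of 2 h. It became 5 without the 12 h and 18 h libraries, Hs2st1 and Hs6st1 being added. The 9 genes had a median log2 fold change of 0.10 after 2 h, where all tested genes had 0.026. After 24 h the medians were -0.72 and -0.011. Hs3st2 and Hs3st3b1, chosen with their falls known, enter the medians of the 9 genes. The 24 h median is the value of Hs3st1, which did not differ detectably from 0 h (adjusted p = 0.368 by edgeR's test). Nothing is read from the gap to all tested genes. Scaling by library totals alone lowered the median of all genes at 24 h by 0.258 on the log2 scale, and under it the 2 genes higher at 24 h were 0 and the genes called down at 24 h were 4, Hs2st1 and Hs6st1 being added. The shares of all tested genes at 24 h under that scaling are not given here, so these counts are not read against a background.

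**Figure D1:**
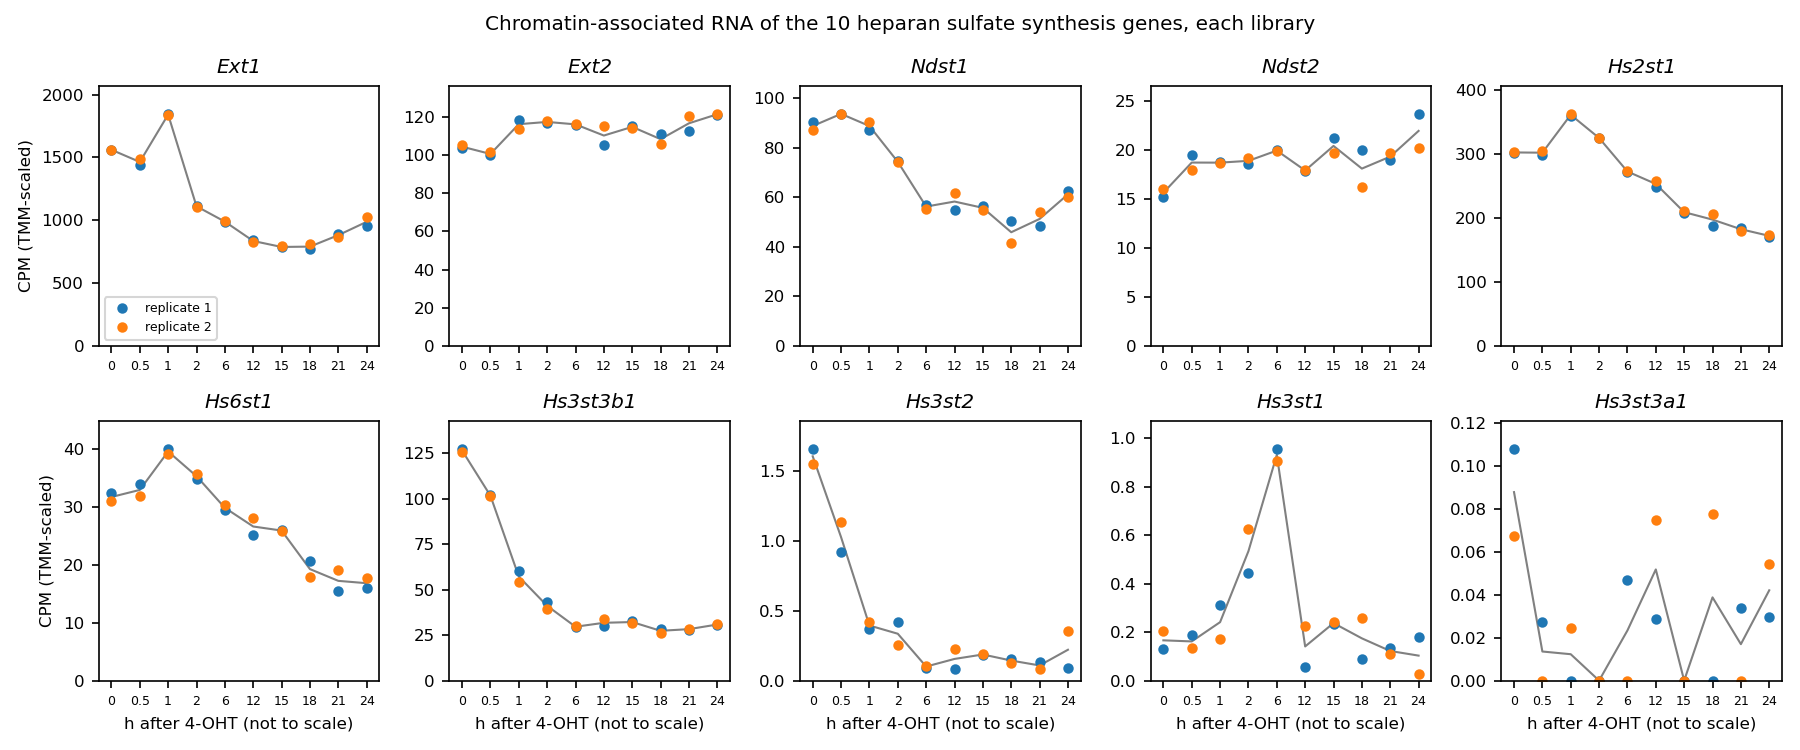
CPM of each of the 10 genes in each of the 20 libraries against hours after 4-OHT (equally spaced, not to scale); points are the 2 replicates, the line joins their means, and each panel starts at 0 with its own scale. Hs3st3b1 drops from 128 and 126 CPM at 0 h to about 30 CPM from 6 h on, Hs3st1 peaks at 6 h, and Ext1, Hs2st1 and Hs6st1 are highest at 1 h.

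The sequences just before the RefSeq starts of these 3-O sulfotransferase genes are shown because Hs3st3b1 and Hs3st2 fell together while Hs3st1 rose at 2 and 6 h. Each is the stretch of 250 bases before the RefSeq start (GRCm38.p6), read 5′ to 3′ on the gene's strand, with every GGGAA or its reverse complement TTCCC, the core letters of Ikaros binding sites, in capitals. The Hs3st3b1 window is chr11:63922285-63922534 (minus strand), the Hs3st2 window chr7:121392046-121392295 (plus strand) and the Hs3st1 window chr5:39644632-39644881 (minus strand).
Hs3st3b1: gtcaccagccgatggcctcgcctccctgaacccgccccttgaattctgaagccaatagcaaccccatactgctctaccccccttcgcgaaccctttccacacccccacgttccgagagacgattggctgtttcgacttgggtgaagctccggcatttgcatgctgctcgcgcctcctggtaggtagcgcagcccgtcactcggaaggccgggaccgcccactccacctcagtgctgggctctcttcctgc
Hs3st2: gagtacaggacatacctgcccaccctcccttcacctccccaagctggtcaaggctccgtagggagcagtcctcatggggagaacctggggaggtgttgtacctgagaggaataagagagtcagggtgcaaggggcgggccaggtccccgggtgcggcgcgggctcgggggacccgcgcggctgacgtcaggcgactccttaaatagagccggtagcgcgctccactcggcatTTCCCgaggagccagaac
Hs3st1: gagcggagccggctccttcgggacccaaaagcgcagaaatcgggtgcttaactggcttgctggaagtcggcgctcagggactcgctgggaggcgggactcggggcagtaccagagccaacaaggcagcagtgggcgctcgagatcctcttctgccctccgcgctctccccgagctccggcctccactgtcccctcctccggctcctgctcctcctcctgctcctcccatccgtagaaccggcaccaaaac
Searched on both strands, the capitalised letters occurred 1 time in the Hs3st2 window and 0 times in those of Hs3st3b1 and Hs3st1. The paper counted IKZF1 motifs by shorter runs of letters than this. Such shorter runs are present in the Hs3st3b1 and Hs3st1 windows, but they were not counted here. A count of 0 therefore does not mean that a window lacks Ikaros motifs as the paper defined them. Of the 8 genes with a window used here, 3 held a match (Hs3st2, Ndst2 and Ext2), whereas 56.2% of the 32851 RefSeq windows of that length did. The start used for Hs3st1 lies 110844 bases inside the gene's GENCODE span, which begins at a longer transcript. That used for Hs3st2 lies 437 bases inside its GENCODE span. Both windows, with the Hs3st2 match, thus fall within the spans and not before them. A match is a run of letters only, and a window without one says nothing of shorter motifs within it or of binding elsewhere. Ext1 and Ndst1 are not in these windows.

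Hs3st3b1 (ENSMUSG00000070407, chr11:63885792-63922290, minus strand, GRCm38, 36.5 kb in GENCODE M21) stood highest among the 3-O sulfotransferase genes of the set. The untreated libraries had 128 and 126 CPM. After 30 min the level was 102 and 101 CPM, after 1 h 60.04 and 54.5 CPM, and after 2 h 43.1 and 39.1 CPM. From 6 h on, all libraries lay between 26.4 and 33.7 CPM. The 0 h libraries stood above every other library, and the levels of 30 min, 1 h, 2 h and 6 h did not overlap one another. Against 0 h the log2 fold change was -0.32 after 30 min, -1.14 (SE 0.0554) after 1 h and -1.62 after 2 h. It reached -2.10 after 6 h and was -2.04 (SE 0.0595) after 24 h. This is a 2.21-fold lower level at 1 h and a 4.10-fold lower level at 24 h. In bulk RNA fewer expressing cells and less RNA per cell cannot be told apart. The midpoint between 0 h and the lowest level, on the log2 scale, was passed at 58.5 min, and at 60.5 and 57.3 min in the 2 replicates.

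Hs3st2 (ENSMUSG00000046321, chr7:121391859-121501770, plus strand, 109.9 kb) fell from far lower counts. The untreated libraries had 77 and 69 counts. There were 34 and 51 counts after 30 min, 18 and 17 after 1 h, 16 and 11 after 2 h, 4 and 5 after 6 h, and 3 and 13 after 24 h. Every treated library lay below both untreated ones in CPM, and the libraries of 6 h and later ranged from 0.0814 to 0.353 CPM. On the log2 scale the change was -2.02 (SE 0.266) after 1 h and -2.27 (SE 0.283) after 2 h. It was -3.96 (SE 0.358) after 6 h and -2.81 (SE 0.323) after 24 h. The 24 h value rests on which library is kept: it was -4.12 without replicate 2 and -2.18 without replicate 1 of 24 h. The midpoint was passed at 59.4 min, within a minute of that of Hs3st3b1, but at 59.4 and 79.4 min in the 2 replicates.

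The last 32927 bases of Hs3st2 are overlapped on the other strand by 4933432K03Rik, an antisense RNA gene of unknown role that was looked at after the values were seen. The antisense gene had 624 and 601 counts before treatment, 184 and 186 after 2 h, and 93 and 98 after 24 h, more than Hs3st2 in every library. In CPM the means were 13.5, 4.55 and 2.72. Against 0 h its log2 fold change was -1.66 (SE 0.0899) after 1 h, -1.57 (SE 0.0905) after 2 h and -2.31 (SE 0.103) after 24 h. The library kit marks strand, but whether the counting used it is not given in the sources used here. If it did not, reads of the shared stretch cannot be told apart, and the part of either gene in the other's counts was not tested.

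**Figure D2:**
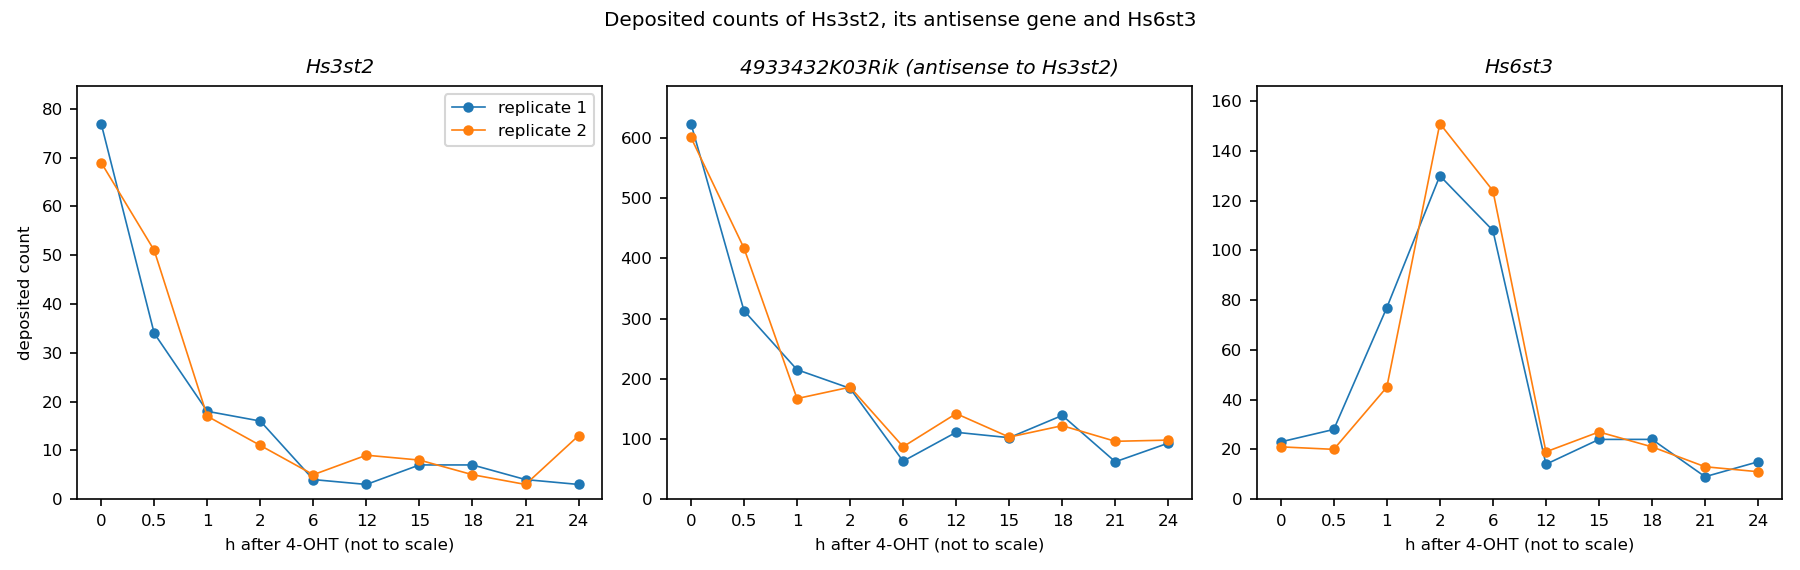
Deposited counts (vertical axis, from 0) of Hs3st2, of the antisense gene 4933432K03Rik and of Hs6st3 against hours after 4-OHT (not to scale), 1 line for each replicate. Hs3st2 and 4933432K03Rik are highest at 0 h in both replicates, with 77 and 69 counts and 624 and 601 counts, whereas Hs6st3 is highest at 2 h with 130 and 151 counts.

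Hs3st1 (ENSMUSG00000051022, chr5:39613935-39755475, minus strand, 141.5 kb) took the opposite course at low counts. There were 6 and 9 counts before treatment, 17 and 27 after 2 h and 41 and 42 after 6 h. Later libraries had 2 and 9 counts (12 h), 9 and 10 (15 h) and 6 and 1 (24 h). Both 2 h libraries and both 6 h libraries exceeded every library of 0 h and of 12 h to 24 h. The log2 fold change against 0 h was 1.69 at 2 h (SE 0.463, adjusted p = 0.00372 by edgeR's test) and 2.47 at 6 h (SE 0.404, adjusted p = 1.56e-05), a 3.22-fold and a 5.54-fold rise. From 2 h to 24 h it fell by 2.40 on the log2 scale (SE 0.561, adjusted p = 6.27e-04). The call at 2 h was lost without either 0 h library (log2 fold change 1.39 without replicate 1 and 2.03 without replicate 2), without replicate 2 of 2 h (1.41) and with DESeq2 (adjusted p = 0.0213). The call at 6 h kept its direction and its side of the threshold with each of the 0 h and 6 h libraries left out, at log2 fold changes of 2.18 to 2.81. The fall from 2 h to 24 h was no longer called without replicate 2 of either time, at -2.12 without that of 2 h and -1.57 without that of 24 h. It was still called without replicate 1 of 24 h, at -4.16, and without that of 2 h, at -2.61. The midpoint of the rise was passed at 96.9 min in the mean and at 81.3 min in replicate 1. In replicate 2, where the 1 count at 24 h is the farthest point from 0 h, the same measure gave 21.8 h, so no time is read from it. At 24 h the gene did not differ detectably from 0 h (log2 fold change -0.72, SE 0.717, adjusted p = 0.368), and the sign turned to 0.11 without replicate 2.

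Hs3st3a1 (ENSMUSG00000047759, chr11:64435332-64522841, plus strand), whose product makes the same kind of site as HS3ST3B1, was at the limit of detection. It had 23 counts in the 20 libraries together, with 0 in 9 of them and at most 5 in any. The 0 h libraries had 8 counts between them, and no fold change is given. Its start lies 513 kb from that of Hs3st3b1 on the same chromosome, and the transcripts of the pair share 416 stretches of 50 bases, 8.56% of those of Hs3st3b1 and 10.7% of those of Hs3st3a1. Exonic reads from those stretches could be dropped or split between the pair. No other pair of the 3-O sulfotransferase genes here shared a stretch of that length.

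Hs3st3b1 was far above the other 3-O sulfotransferase genes of the set, and the summed level of the set's 4 genes followed it. Per kilobase of gene span, the 4 genes together had 3.49 CPM at 0 h. Of that sum 80.3% was left after 30 min, 45.1% after 1 h and 32.5% after 2 h, with 23.5% after 6 h and 24.3% after 24 h. Hs3st3b1 made up 99.1% to 99.7% of the sum at every time, including 6 h, when Hs3st1 was at its highest. Of the 3-O sulfotransferase genes outside the set, Hs3st4 and Hs3st6 had too few counts to be tested. Hs3st5 was tested but is not in the sum, and its level was not compared.

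**Figure D3:**
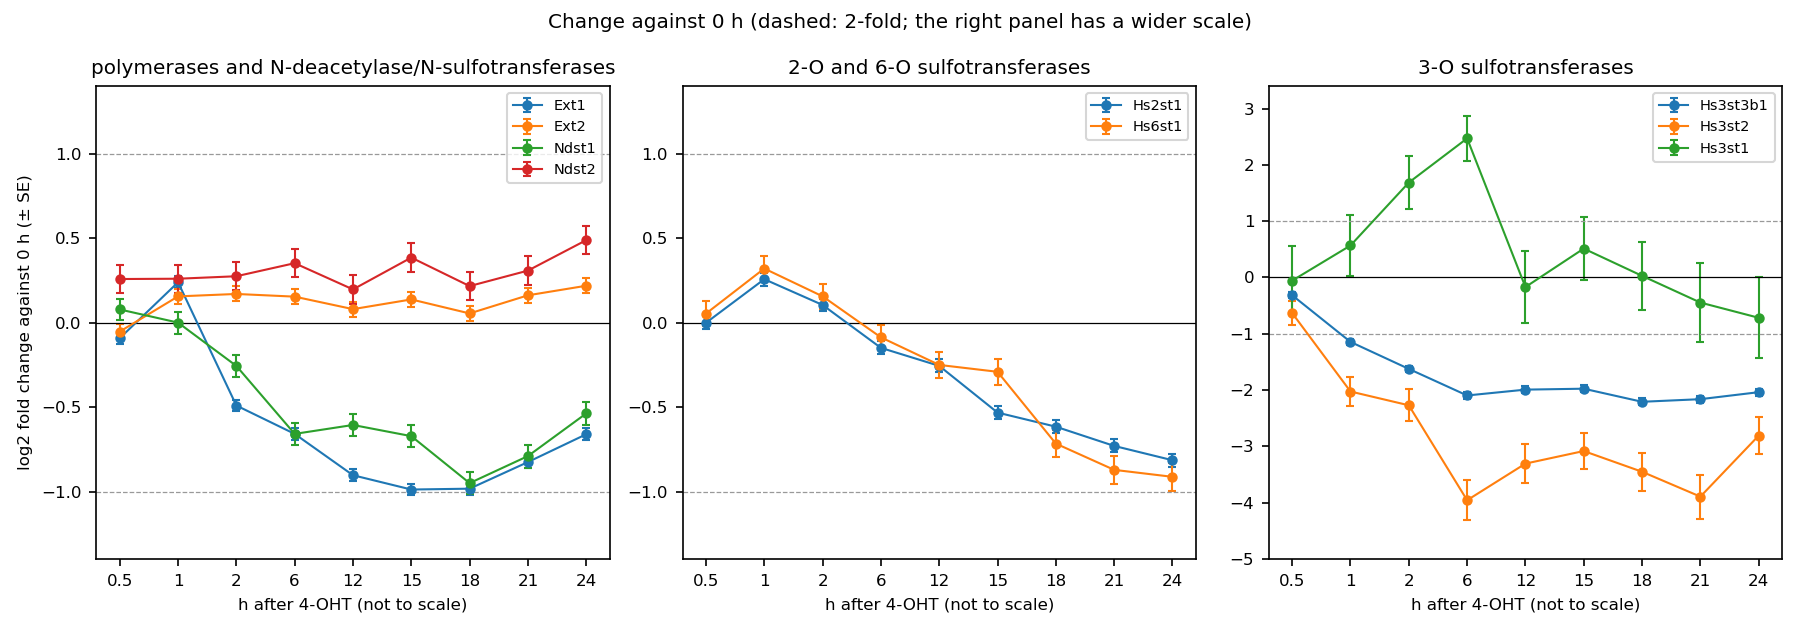
Log2 fold change against 0 h with its standard error (vertical axis) for the 9 tested genes at the 9 times after 4-OHT (hours, not to scale), from the fit of all 20 libraries; dashed lines mark a 2-fold change, and the right panel has a wider scale. Hs3st3b1 and Hs3st2 lie below a 2-fold fall from 1 h on, Hs3st1 lies above a 2-fold rise at 2 and 6 h, and the other 6 genes stay within 2-fold at each time with this scaling by TMM factors.

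From 2 h on Ext1 lay below 0 h and Ext2 slightly above it. Scaling by library totals put Ext2 slightly below 0 h from 18 h on (-0.071 on the log2 scale at 18 h). With TMM factors Ext2 did not differ detectably from 0 h at 12 h (0.079, adjusted p = 0.121 by edgeR's test). The same held at 18 h (0.054, adjusted p = 0.275). Ext1 (ENSMUSG00000061731, chr15:53064038-53346159, minus strand), the catalytic partner and the longest of the set at 282 kb, had 1559 and 1562 CPM before treatment and 1846 and 1834 CPM after 1 h. It then had 1115 and 1105 CPM after 2 h, 783 and 790.3 CPM after 15 h, and 951 and 1022 CPM after 24 h. The groups of 0, 1, 2 and 24 h did not overlap. The rise at 1 h was 0.24 on the log2 scale (adjusted p = 6.98e-06), and it was followed by values of -0.49 after 2 h (adjusted p = 9.04e-11), -0.99 after 15 h (adjusted p = 2.65e-16) and -0.66 after 24 h (adjusted p = 1.39e-13). Under library totals the values after 15 h and 18 h were -1.04 and -1.11, past 2-fold. Ext2 (ENSMUSG00000027198, chr2:93661028-93822568, minus strand), which forms the polymerase complex with EXT1 in the Golgi, had 104 and 105 CPM before treatment, 117 and 118 CPM after 2 h and 121 and 122 CPM after 24 h. The rise was 0.17 on the log2 scale after 2 h (adjusted p = 0.00261) and 0.22 after 24 h (adjusted p = 1.52e-04), and scaling by library totals turned the latter to -0.040.

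The N-deacetylase/N-sulfotransferases, whose N-sulfation sets where the later enzymes act, also moved apart. Ndst1 (ENSMUSG00000054008, chr18:60684494-60748650, minus strand) had 90.5 and 87.1 CPM before treatment. It had 74.6 and 74.1 CPM after 2 h, 57.1 and 55.5 CPM after 6 h, 50.2 and 41.5 CPM after 18 h, and 62.4 and 59.95 CPM after 24 h. Both libraries of 2 h and of every later time were below both of 0 h. The log2 change against 0 h was -0.26 after 2 h (adjusted p = 0.00197) and -0.66 after 6 h (adjusted p = 1.50e-08). The largest fall, of -0.95, came after 18 h (adjusted p = 2.58e-11) and was -1.07 under library totals, and -0.54 remained after 24 h (adjusted p = 2.14e-07). The ribosomal protein gene Rps14 overlaps 1553 bases of Ndst1 on the other strand, and its level was 46.4 CPM before treatment and 40.0 CPM after 24 h. Ndst2 (ENSMUSG00000039308, chr14:20723730-20734562, minus strand) had 15.2 and 16.1 CPM before treatment and 16.2 to 23.7 CPM in the treated libraries, all above both 0 h libraries. The rise was 0.27 on the log2 scale after 2 h (adjusted p = 0.00840) and 0.49 after 24 h (adjusted p = 2.09e-05), the latter falling to 0.23 with an adjusted p of 0.0301 under library totals.

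Hs2st1 and Hs6st1, the genes of 2-O and 6-O sulfation in the set, were each highest at 1 h and lower than before treatment at 24 h. Hs2st1 (ENSMUSG00000040151, chr3:144429706-144570181, minus strand), the only heparan sulfate 2-O sulfotransferase gene, had 302 and 303 CPM before treatment and 360.0 and 363 CPM after 1 h. It then declined through 325 and 326 CPM (2 h), 272 and 274 CPM (6 h) and 207 and 211 CPM (15 h) to 170.0 and 174 CPM (24 h). These 6 groups did not overlap. Against 0 h the log2 fold change was 0.26 after 1 h (adjusted p = 8.03e-06) and -0.81 after 24 h (adjusted p = 2.11e-14). Hs6st1 (ENSMUSG00000045216, chr1:36068400-36106446, plus strand), which adds sulfate at the 6-O position, had 32.5 and 31.1 CPM before treatment, 40.1 and 39.2 CPM after 1 h, 34.9 and 35.8 CPM after 2 h, and 16.0 and 17.7 CPM after 24 h. Both libraries of 1 h were above and both of 24 h below every library of 0 h. Against 0 h the log2 fold change was 0.32 after 1 h (adjusted p = 0.00125) and -0.91 after 24 h (adjusted p = 1.49e-09).

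Asked what moved after the first 2 h, the comparison of 24 h with 2 h, which does not use the 0 h libraries, called 2 of the 9 genes down, Hs3st1 and Hs6st1 (16.6% of all tested genes), and 0 up (16.2%). DESeq2 also called 0 up, and 1 gene, Ndst2, was higher at an unadjusted p below 0.05. Library totals turned the direction of Ndst2, to -0.055 on the log2 scale (adjusted p = 0.598 by edgeR's test). The log2 fold change of Hs6st1 was -1.07 (SE 0.0826, adjusted p = 1.33e-10), a 2.10-fold fall. Without replicate 1 of 24 h it was -0.99 and so no longer past 2-fold. Hs2st1 fell 1.89-fold over the same interval (log2 fold change -0.92, adjusted p = 3.77e-15), short of the 2-fold limit, but it was called under library totals at -1.19. The log2 fold change over that interval was -0.41 for Hs3st3b1 and -0.54 for Hs3st2.

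Levels of different genes were compared per kilobase of gene span, since intronic reads were counted. At 0 h the order was Ext1 with 5.53 CPM per kb, Hs3st3b1 with 3.47, Hs2st1 with 2.15, Ndst2 with 1.44, Ndst1 with 1.38, Hs6st1 with 0.835 and Ext2 with 0.647 CPM per kb. The 3 remaining genes were far lower, Hs3st2 at 0.0146, Hs3st1 at 0.00117 and Hs3st3a1 at 0.00100 CPM per kb. Neighbours in this order did not overlap in their 2 libraries apart from Ndst2 with Ndst1 and Hs3st1 with Hs3st3a1. At 24 h Ext1 was still highest with 3.50 CPM per kb, Ndst2 was next with 2.03 ± 0.228 (SD, n = 2), and Hs3st3b1 was the fifth with 0.845 CPM per kb, below Ndst1 with 0.954. Per kilobase of exon, Hs3st3b1 was the third at 0 h, behind Ext1 and Hs2st1, and again the fifth at 24 h. The order of other genes depended on the length used. By exon length Ndst2 ranked 7 at 0 h and 6 at 24 h, while Ext2 ranked 4 and 3.

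**Figure D4:**
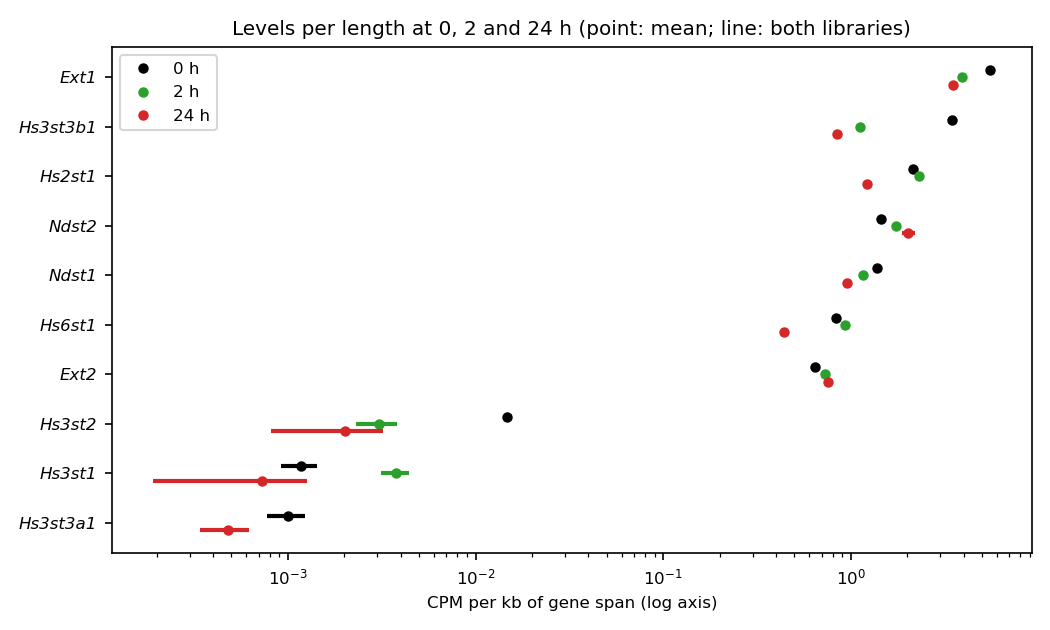
Level of each gene in CPM per kb of gene span (log axis) at 0, 2 and 24 h; points are means of 2 libraries and lines join the 2 libraries. Hs3st3b1 moves from 3.47 to 0.845 CPM per kb between 0 h and 24 h and Hs3st2, Hs3st1 and Hs3st3a1 lie far to the left at all 3 times; Hs3st3a1 had 0 counts at 2 h and has no point there.

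The profiles nearest to each 3-O sulfotransferase gene were found by Pearson's r of mean log2 CPM over the 10 time points among 12056 genes averaging at least 1 CPM, as a description, since all genes share the same libraries. For Hs3st3b1 they were Sdhaf2 (r = 0.994), Rfx4 (0.991) and Atp2b4 (0.991). For Hs3st2 they were Sdhaf2 (r = 0.988), Hs3st3b1 itself (0.984) and C330007P06Rik (0.983). Hs3st2 and Hs3st3b1 were both chosen with their falls known, so nothing is read from the likeness of their profiles. For Hs3st1, with its peak at 6 h, they were Neo1 (r = 0.955), Ccdc7b (0.933) and Tmem232 (0.926). Around the gene on chromosome 11, 2 tested genes start within 200 kb of Hs3st3b1, and they are also the 2 tested genes between Hs3st3b1 and Hs3st3a1. Neither was called at 2 h. Cox10, a heme synthesis gene, had a log2 fold change of -0.30 at 2 h and was called down at 24 h with -1.98. No tested gene starts within 200 kb of the start of Hs3st2.

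The rest of the heparan sulfate pathway was followed through 50 further genes in 5 lists, of which 37 were tested. After 2 h 2 of the 37 were called down and 5 up, where 6.91% and 6.25% of all tested genes were. After 24 h 4 were called down and 9 up, where 20.1% and 20% of all were. Their median log2 fold change was 0.095 after 2 h and 0.19 after 24 h, with 0.026 and -0.011 over all tested genes. Under library totals the 24 h calls were 7 down and 6 up, and the shares of all tested genes under that scaling are not given here. Each list is short, so its own counts below are not read against the shares of all tested genes.

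Among the 6 tested genes that are further polymerases and modifiers, 2 were called down at 2 h (Extl2 and Ndst4) and 1 up (Hs6st3). At that time 6.91% of all tested genes were called down and 6.25% up. Hs6st3, another 6-O sulfotransferase gene, had 23 and 21 counts before treatment, 130 and 151 after 2 h, 108 and 124 after 6 h, and 15 and 11 after 24 h. The log2 fold change was 2.82 after 2 h (SE 0.196, adjusted p = 6.10e-11) and -0.39 after 24 h (adjusted p = 0.301). Like Hs3st1, it was thus above 0 h at 2 and 6 h and back near it later. Extl2, which encodes an N-acetylglucosamine transferase, had 262 and 237 counts before treatment, 64 and 83 after 2 h, and 194 and 201 after 24 h. Its log2 fold change was -1.61 after 2 h (adjusted p = 7.39e-11) and 0.030 after 24 h (adjusted p = 0.791). Ndst4 had 31 and 35 counts before treatment, 10 and 7 after 2 h, 36 and 32 after 18 h, and 10 and 14 after 24 h. At 6, 12, 15, 18 and 21 h it did not differ detectably from 0 h (adjusted p of 0.0617 to 0.743 by edgeR's test). Its fall was thus not sustained between 2 h and 24 h.

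Of the 6 genes of sulfate donor and sugar supply, 1 was called up at 2 h, and 2 up and 1 down at 24 h. Over all tested genes the shares were 6.25% up at 2 h, and 20% up and 20.1% down at 24 h. Papss2, which makes the sulfate donor PAPS, had means of 17.2 CPM before treatment, 13.6 CPM after 2 h and 4.70 CPM after 24 h, which is -1.88 on the log2 scale over 24 h (SE 0.0948, adjusted p = 5.97e-14). Ugp2 and Ugdh, which make UDP-glucose and UDP-glucuronic acid, rose at 24 h with log2 fold changes of 1.01 and 1.23, and Ugp2 had already risen by 1.29 at 2 h. In the linkage region list, whose enzymes join the chain to its protein, only B3galt6 of 6 tested genes was called, down at 24 h with -1.05. Under library totals neither Ugp2 nor Ugdh was called at 24 h.

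The 11 tested genes of trimming and lysosomal breakdown had 1 call up at 2 h and 4 up at 24 h, where 6.25% and 20% of all tested genes were called up. The lysosomal enzymes Sgsh, Ids and Naglu, which are each lost in a form of mucopolysaccharidosis, had log2 fold changes of 1.76, 1.64 and 1.64 at 24 h. Sulf2, which removes 6-O sulfate outside the cell, was the other gene called, but not under library totals. Of the 8 tested core protein genes, 2 were called up at 2 h, and 3 up and 1 down at 24 h. The same shares of all tested genes apply upward, and 20.1% were called down at 24 h. Srgn, a granule proteoglycan of blood cells, rose from 25.5 CPM at 0 h to 109 CPM at 2 h and 261 CPM at 24 h. Gpc1, a membrane-anchored core protein, rose from 0.287 to 2.54 CPM between 0 h and 24 h, and Sdc2 from 1 and 0 counts to 12 and 9.

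**Figure D5:**
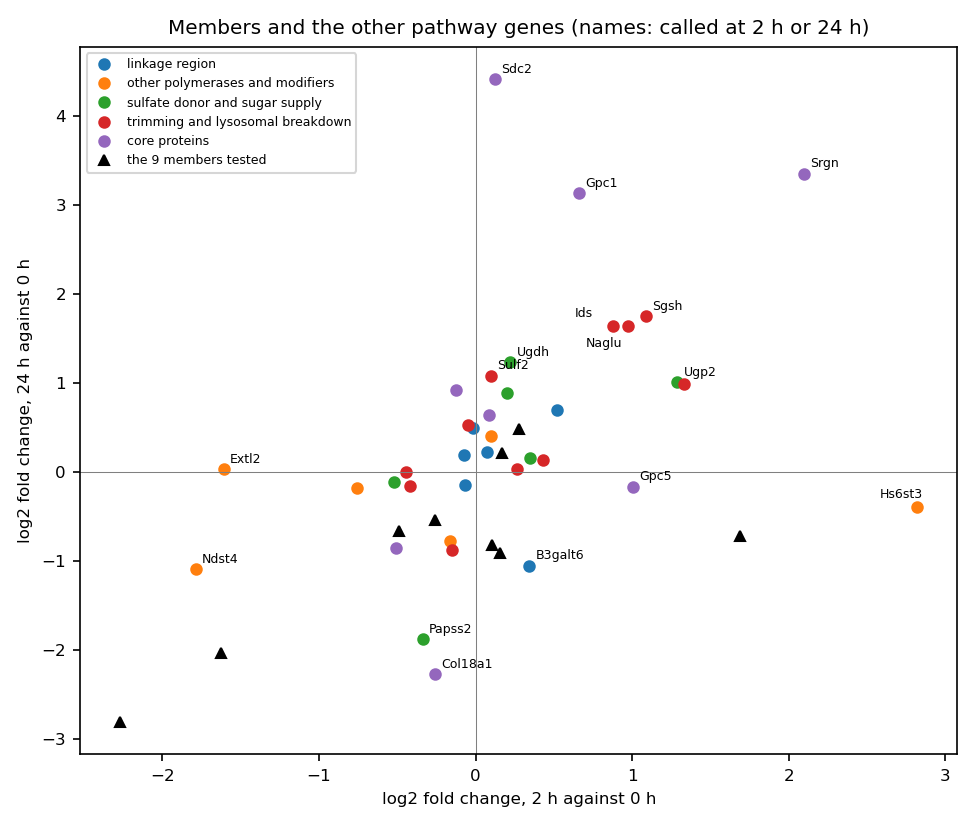
Log2 fold change at 2 h (horizontal) against that at 24 h (vertical), both against the same 0 h libraries, for the 37 tested genes of the 5 other pathway lists (circles) and for the 9 tested members (triangles); genes of the lists called at either time are named. Srgn lies at 2.10 and 3.35, Hs6st3 at 2.82 and -0.39, and the point of Sdc2 rests on 1 and 0 counts at 0 h.

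Chondroitin sulfate is built on the same linker by other enzymes. Of 16 listed chondroitin synthesis genes 12 were tested, and 3 were called down at 2 h with 0 up, where 6.91% and 6.25% of all tested genes were, while their median log2 fold change was 0.62. At 24 h 5 were called down and 2 up (20.1% and 20% of all), with a median of -0.35. Csgalnact1, which starts chondroitin chains, had 529 and 549 CPM before treatment, 87.6 and 87.6 CPM after 2 h, and 133 and 143 CPM after 24 h, which is -2.62 on the log2 scale after 2 h (SE 0.0439, adjusted p = 6.99e-21). Chsy1, a chondroitin polymerase, had 9.75, 4.22 and 1.45 CPM at 0, 2 and 24 h. Chst11, a chondroitin 4-O sulfotransferase, had 2.02, 3.96 and 0.156 CPM at these times, and its log2 fold change over 24 h was -3.67 (adjusted p = 6.16e-10).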

How the data were processed

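Chromatin-associated RNA of B3 cells was sequenced in 20 libraries. By the paper's methods, the authors ran nf-core/rnaseq with the STAR aligner on mm10, then obtained gene counts that include intronic reads from featureCounts. The submitters' processing notes name CASAVA 2.17, featureCounts and GRCm38. The deposited values are raw counts without normalization. Annotation release and strand setting are not given in the sources used here.

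Libraries were grouped by the time in their labels. The filter kept 16601 genes, each reaching 10 counts in 2 or more libraries. These were fitted with edgeR 4.0.16 in R 4.3.3 (TMM factors, quasi-likelihood test, time as a factor, all 20 libraries, Benjamini-Hochberg adjustment over all genes tested), and called at an adjusted p below 0.01 and a fold above 2. Each SE is the absolute log2 fold change divided by the square root of the F statistic of that test. It therefore holds what the p-value holds, and for Hs3st2 and Hs3st3b1 it is not read as a test. CPM were computed from the deposited counts with TMM-scaled library sizes. Counting error is all that depth describes, as reads carry no molecular identifiers. The steps were tested on simulated counts. Positions came from GENCODE M21 (55240 of 56239 identifiers found, 10 of 10 members), and upstream sequences from RefSeq on GRCm38.p6. Python 3.11.15 was used.

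The members and the gene lists were chosen with earlier results of these data known. A marker on the B-lineage list is not reported here. Named were all members, up to 3 called genes of each list with the largest change, the 3 genes most alike in profile, and neighbours called at 2 h; Sulf2, Cox10, Rps14 and 4933432K03Rik were added after their values were seen. Alternatives were DESeq2 1.42.0, its size factors, library totals, other filters, a replicate block, a model of only the libraries compared, leaving out each library and, added after seeing the data, leaving out 12 h and 18 h and dropping the fold limit.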

Additional observations from a re-analysis of the deposited data

How the results depend on the processing

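At 2 replicates a time, counts of 3 or fewer bound what can be seen of Hs3st1, Hs3st2 and Hs3st3a1. With library totals alone, members called down at 24 h were 4 (Hs2st1 at -1.07 and Hs6st1 at -1.17 on the log2 scale passed 2-fold), members higher at 24 h 0, members changed over the course 7, pathway genes down at 24 h 7, and Ext2 at 24 h reversed to -0.040. With at least 10 counts in every library, which leaves Hs3st1 and Hs3st2 untested, members called down were 1 at 1, 2, 6 and 24 h, up 0 at 2 and 6 h, down from 2 h to 24 h 1, changed over the course 1, and pathway genes called down 1 at 2 h and 2 at 24 h. With DESeq2, members up at 2 h were 0, Hs3st1 being at 1.70. Members higher at 2 h whatever the fold were 5 with only the libraries compared, and 5 without 12 h and 18 h; the cause was not tested. The half-maximal time was 21.8 h for Hs3st1 in replicate 2, whose farthest point is its 1 count at 24 h, 1.32 h for Hs3st2 in replicate 2, and 0.637 h for Hs3st2 and 0.778 h for Hs3st3b1 on linear CPM. Leaving out 1 library gave 0 to 1 members up at 2 h, 1 to 2 down from 2 h to 24 h, 0 to 1 higher and 3 to 4 lower at 2 h, 3 to 4 changed over the course, and log2 fold changes of Hs3st1 at 24 h of -2.48 to 0.11. Members called down at 1, 2, 6 and 24 h stayed at 2 in all of these. Shares of all tested genes are not given for these alternatives, apart from 52.9% changed over the course with library totals. The counts describe only how far a result depends on the setting.

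The replicate numbers showed no consistent pairing of the libraries. Over 45 pairs of time points the correlation of deviations averaged 0.0330 (-0.694 to 0.487) across 7876 genes, with 18 of the pairs over 0.1. So wide a spread does not exclude pairing between some of the time points. With the replicate number as a block, members called down at 1, 2, 6 and 24 h were 2 each, up at 2 h 1, changed over the course 3, and no call of a member changed.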
